A study of Homo sapiens with 6 samples.

Results

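The genes described here are 10 pan-T surface receptors and adaptors (CD2, CD5, CD6, CD7, CD27, CD28, THEMIS, UBASH3A, TRAT1 and SH2D1A), out of 78932 gene identifiers counted in each library. They were selected by symbol, because CD5, CD6 and CD7 were seen to rise together in the comparison of the MEF2C hairpin with the scramble control. The values of that comparison are therefore a description of the members, given without p-values. Of the 10 members 9 passed the filter on low counts, and CD27 did not. A member with few reads passes that filter through the group where it is higher, so the tested members are not all members.

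RNA was sequenced from Karpas-45, an established line of T-cell acute lymphoblastic leukemia blasts that the labels trace to bone marrow. The cells carried either a scramble control (labelled WT) or a GFP-linked lentiviral short hairpin against the transcription factor MEF2C (labelled MEF2C KD), and neither group received a drug. Per the series' design text, GFP-positive cells were sorted 120 hours after transduction with the MEF2C hairpin. Each group held 3 libraries that the labels call technical replicates, so every error and p-value below covers only the spread between such replicates of 1 line and 1 hairpin.

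CD5, CD6 and CD7 are surface proteins by which T cells and T-lineage leukemia are recognised in the clinic. CD5 and CD6 are scavenger-receptor proteins that tune the strength of T-cell receptor signals, and CD7 is an immunoglobulin-family protein that appears early in T-cell development. CD2, CD27 and CD28 are adhesion and costimulatory receptors, and THEMIS, UBASH3A, TRAT1 and SH2D1A act inside the membrane, where they couple or limit these receptors' signals.

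The hairpin's target is shown because it defines the compared groups. It lies in coding sequence of exon 9 of 12 of MEF2C-201, at chr5:88731793-88731813 on the minus strand of GRCh38:
MEF2C target site: cccaatgaatttaggaatgaa
Among GENCODE 29 transcripts these 21 bases matched 24 transcripts of MEF2C and none of another gene. The longest run of the target found in any transcript of a member was 9 bases, in UBASH3A and TRAT1, and it was 8 in CD5, 8 in CD6 and 6 in CD7. The MEF2C reads numbered 2, 1 and 0 for scramble replicates 1 to 3. For hairpin replicates 1 to 3 they numbered 2, 0 and 0. Its reads cannot check the labels, because every library lay under the floor of 3 reads.

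Gene reads per library ran from 45560303 to 97077335, and 3 reads corresponded to 0.0309 to 0.0658 CPM, the read count scaled to the size of the library. T-cell defining markers were abundant in every library: the summed level of the T-cell receptor and CD3 chains in the list ran from 2329 to 2417 CPM in scramble and from 2421 to 2517 CPM in hairpin libraries. Of these 7 genes 3 were called higher and 1 lower. The 9 NK-cell markers summed to 5.83 to 6.97 CPM in scramble and 5.30 to 5.97 CPM in hairpin libraries, with NCR1 and FCGR3A at 0 reads throughout. The 8 B-cell markers summed to 4.17 to 4.68 and 4.99 to 5.57 CPM, with CD22 and EBF1 at 0 reads, and the 8 myeloid markers to 1.50 to 2.01 and 1.47 to 2.25 CPM. Only 3 NK-cell, 3 B-cell and 2 myeloid markers passed the filter on low counts, and none of these was called. The highest of each were PRF1 at 5.16 CPM, CD79A at 2.81 CPM and CD14 at 1.26 CPM over the 6 libraries, and TRBC2 at 884 CPM led the T-cell list. TRBC2 is nearly identical to TRBC1, so reads that aligned to both could be missing from both counts. The T-cell and the B-cell sums were higher in all 3 hairpin libraries than in any scramble library. The largest changes within them were those of TRBC2 (means of 839 and 928 CPM in scramble and hairpin libraries) and CD79A (2.51 and 3.12 CPM, not called). The T-cell list did not rise as a whole, with 1 gene called lower. The part of these sums in the members' values was not tested. Reads aligned to several places took 16.1% in MEF2C hairpin replicate 3 and between 3.56% and 6.86% in the other libraries. Without that library the log2 fold changes of CD5, CD6 and CD7 were 1.11, 0.53 and 0.60.

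CD5 differed most among the tested members. The scavenger receptor CD5 (ENSG00000110448.11, chr11:61102395-61127852, plus strand) measured 8.11, 9.28 and 8.82 CPM in scramble replicates 1 to 3 and 20.3, 17.5 and 18.1 CPM in MEF2C hairpin replicates 1 to 3. All 3 hairpin libraries lay far above the scramble libraries, with no overlap. The means were 8.74 ± 0.587 and 18.6 ± 1.50 CPM (SD of 3 libraries), a 2.13-fold difference (log2 fold change 1.09, SE 0.0724). These values rest on 414 to 529 reads per scramble library and 938 to 1725 reads per hairpin library. In bulk RNA a change in the number of cells that express a gene and a change in RNA per cell cannot be told apart.

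Its paralogue CD6, which binds the adhesion molecule ALCAM, lies on the same strand (ENSG00000013725.14, chr11:60971680-61020377). CD6 measured 40.7, 43.1 and 43.2 CPM in scramble and 60.8, 61.4 and 59.0 CPM in hairpin libraries. Both groups were tight and did not overlap. The means were 42.3 ± 1.44 and 60.4 ± 1.25 CPM (SD of 3 libraries), a 1.43-fold difference (log2 fold change 0.52, SE 0.0378).

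CD7 (ENSG00000173762.9, chr17:82314868-82317602, minus strand), whose known ligand is SECTM1, measured 37.9, 41.6 and 39.2 CPM in scramble and 59.7, 60.3 and 59.0 CPM in hairpin libraries. Here too the groups stood apart. The means were 39.6 ± 1.84 and 59.7 ± 0.634 CPM (SD of 3 libraries), 1.51-fold apart (log2 fold change 0.60, SE 0.0389). Over 13 alternative settings the log2 fold change ran from 1.03 to 1.14 for CD5, from 0.49 to 0.53 for CD6 and from 0.57 to 0.63 for CD7.

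**Figure D1:**
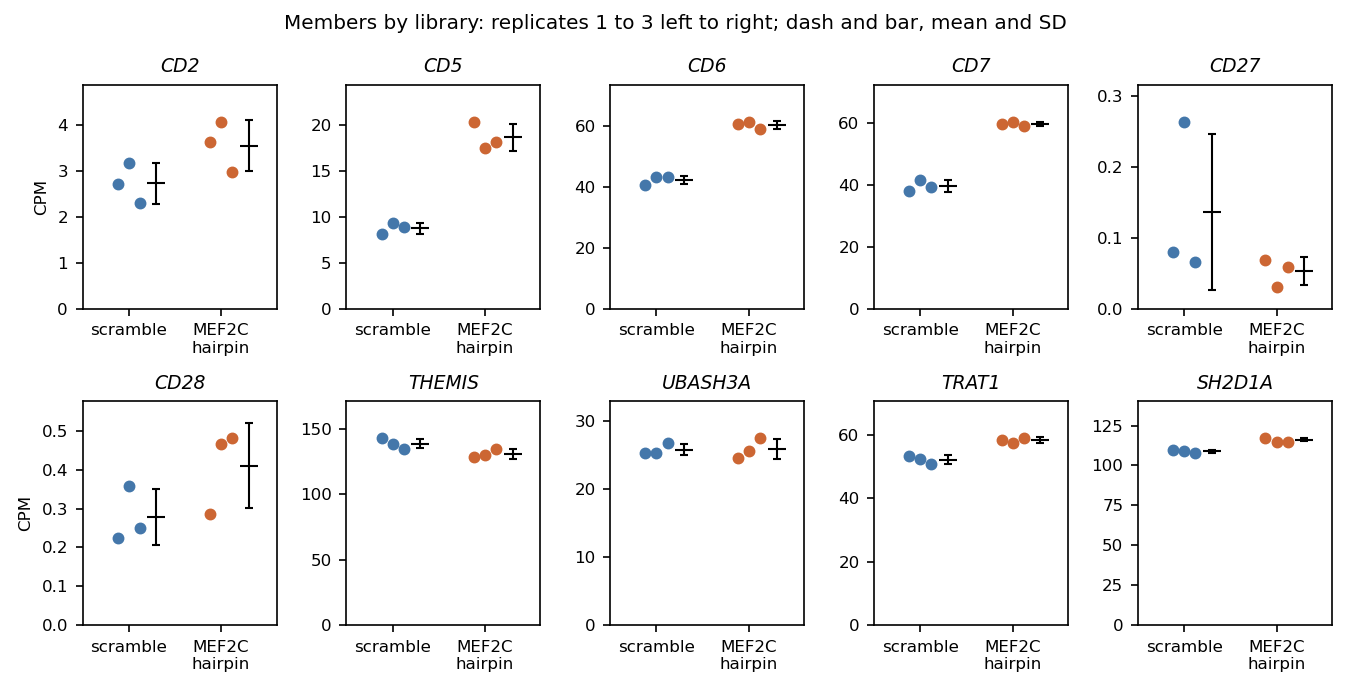
Expression of the 10 members in each library, in CPM on linear axes from 0, with scramble libraries in blue and MEF2C hairpin libraries in orange. Dashes and bars give the mean and SD of 3 libraries. CD5, CD6, CD7, TRAT1 and SH2D1A have groups that do not overlap, and the other 5 members overlap.

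The other surface receptors were low. CD2, the adhesion receptor that binds CD58 (ENSG00000116824.5, chr1:116754385-116769228, plus strand), measured 2.71, 3.18 and 2.30 CPM in scramble and 3.62, 4.07 and 2.97 CPM in hairpin libraries. Hairpin replicate 3 lay below scramble replicate 2, so the groups overlapped, although the means were 2.73 ± 0.441 and 3.55 ± 0.556 CPM (SD of 3 libraries; log2 difference 0.40, SE 0.148). The value ran from 0.28 to 0.52 over the alternatives, and CD2 did not pass the threshold without scramble replicate 1 or 3, without hairpin replicate 1 or 2, or with DESeq2.

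CD28, the receptor for CD80 and CD86 (ENSG00000178562.19, chr2:203706475-203738912, plus strand), received 14, 16 and 15 reads in scramble and 17, 46 and 25 reads in hairpin libraries. This is 0.224, 0.358 and 0.250 CPM against 0.286, 0.466 and 0.481 CPM, with hairpin replicate 1 inside the scramble range. The log2 fold change of 0.59 has an SE of 0.421, and a difference was not detectable at this depth. CD27, the receptor for CD70 (ENSG00000139193.4, chr12:6444867-6451718, plus strand), received 5, 12 and 4 reads in scramble and 4, 3 and 3 reads in hairpin libraries. Pooled over a group this was 0.124 CPM (exact Poisson 95% interval 0.0767 to 0.189) in scramble and 0.0484 CPM (0.0232 to 0.0889) in hairpin libraries. The interval covers counting error only, scramble replicate 2 gave 12 of the 21 scramble reads, and 39.1% of the exonic bases of CD27 are shared with CD27-AS1 and TAPBPL, so its level is uncertain.

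The intracellular members differed little between the groups, and all but UBASH3A were abundant. SH2D1A, the SH2 adaptor of the SLAM receptors (ENSG00000183918.18, chrX:124227868-124373197, plus strand), measured 110, 109 and 108 CPM in scramble and 117, 115 and 115 CPM in hairpin libraries. The groups did not overlap, but they lay only 1.06-fold apart (109 ± 0.970 and 116 ± 0.914 CPM, SD of 3 libraries; log2 difference 0.09, SE 0.0263). TRAT1, a transmembrane adaptor of the T-cell receptor complex (ENSG00000163519.14, chr3:108822698-108855005, plus strand), measured 53.3, 52.5 and 50.7 CPM in scramble and 58.5, 57.3 and 58.9 CPM in hairpin libraries. All 3 hairpin values were above the scramble values, with means of 52.2 ± 1.29 and 58.3 ± 0.875 CPM (SD of 3 libraries; log2 difference 0.16, SE 0.0359).

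THEMIS, which thymocytes need for selection and which binds GRB2 (ENSG00000172673.12, chr6:127708072-127918631, minus strand), was the only tested member with a mean below that of the scramble group. It measured 143, 139 and 135 CPM in scramble and 129, 130 and 135 CPM in hairpin libraries, and replicate 3 of both groups met at about the same level. The log2 fold change was -0.08 (SE 0.0267), and THEMIS did not pass the threshold without scramble replicate 1, hairpin replicate 1 or hairpin replicate 2. UBASH3A, a CBL-binding negative regulator of T-cell receptor signals (ENSG00000160185.15, chr21:42403447-42447681, plus strand), measured 25.4, 25.4 and 26.8 CPM in scramble and 24.6, 25.7 and 27.5 CPM in hairpin libraries. The groups covered the same range, with means of 25.8 ± 0.821 and 25.9 ± 1.48 CPM (SD of 3 libraries; log2 difference 0.00, SE 0.0514).

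By edgeR's quasi-likelihood test, with a Benjamini-Hochberg adjusted p under 0.05 over all 17677 tested genes, 6 of the 9 tested members were past the threshold as higher (CD5, CD6, CD7, CD2, TRAT1 and SH2D1A) and 1, THEMIS, as lower. Of all tested genes 13.5% were called higher and 15.3% lower. Because the members were chosen on this comparison, their count, their median and the separation of their groups say nothing beyond the choice. The median log2 fold change was 0.401 over the 9 tested members, the value of CD2, and 0.004 over all tested genes. In 5 of the 10 members all hairpin values lay above all scramble values, as in 19.5% of tested genes.

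**Figure D2:**
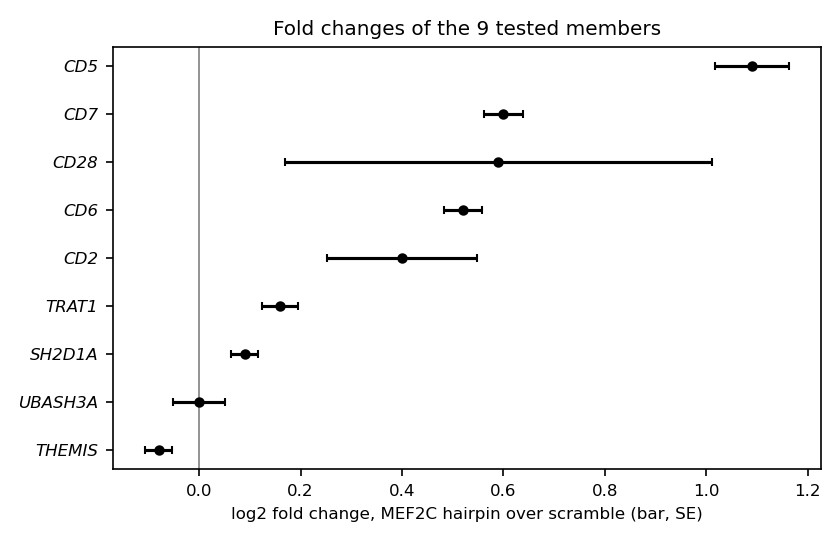
Log2 fold change of the 9 tested members, MEF2C hairpin over scramble, with SE bars from the edgeR fit. CD5 lies at 1.09, CD7 at 0.60 and CD6 at 0.52, while UBASH3A sits at 0.00 and CD28 has the widest bar, with an SE of 0.421.

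Levels of different members were compared per length, as CPM divided by kilobases of merged exon (RPKM). In scramble libraries SH2D1A was highest (35.5 ± 0.317 RPKM), followed by THEMIS (32.3 ± 0.860), TRAT1 (20.6 ± 0.511), CD7 (14.5 ± 0.674), CD6 (7.10 ± 0.241), UBASH3A (6.60 ± 0.210), CD5 (2.71 ± 0.182), CD2 (1.63 ± 0.263), CD27 (0.0965 ± 0.0783) and CD28 (0.0568 ± 0.0146; SD of 3 libraries for each). Neighbours in this order whose 3 values overlapped were CD6 and UBASH3A, and CD27 and CD28. SH2D1A, THEMIS and TRAT1 thus stood above all the surface receptors in level, while UBASH3A lay below CD7 and overlapped CD6, and CD5 was among the lower members despite its large difference.

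In hairpin libraries the first 8 places held the same genes. CD7 reached 21.8 ± 0.232 RPKM, close to TRAT1 at 23.0 ± 0.346 RPKM without overlapping it, and CD5 reached 5.78 ± 0.466 RPKM (SD of 3 libraries). CD5 then overlapped UBASH3A (6.62 ± 0.378 RPKM), whereas CD6, at 10.1 ± 0.210 RPKM, had moved clear of UBASH3A. CD28 and CD27 changed places at the bottom. With the length of the longest transcript in place of merged exons the order was the same in both groups, but CD6 no longer overlapped UBASH3A in scramble libraries, nor did CD5 in hairpin libraries. Merged exons of CD6 (5958 bases) are longer than its longest transcript (3252 bases), which lowers its RPKM.

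**Figure D3:**
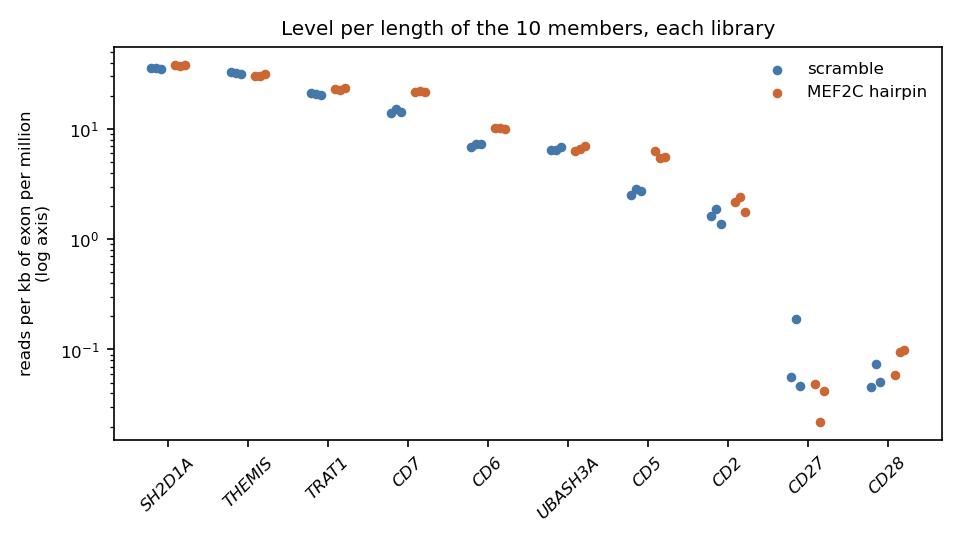
Level of each member in RPKM on a log axis, 1 point per library, in the order of the scramble means. SH2D1A leads at 35.5 RPKM and CD28 is lowest at 0.0568 RPKM in scramble libraries, and CD5 is the gene whose points are farthest apart among those above 1 RPKM.

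Genes whose profile over the 6 libraries was nearest to that of CD5, CD6 or CD7 were sought among 9447 protein-coding genes with a mean of at least 5 CPM. Likeness was the Euclidean distance of log2 CPM, centred on the scramble mean. The nearest to CD5 were CDKN1A (distance 0.212), PLXNB2 (0.242) and CHI3L2 (0.280). CDKN1A measured 5.29 ± 0.518 and 11.0 ± 0.197 CPM and CHI3L2 46.7 ± 1.95 and 97.4 ± 0.386 CPM (SD of 3 libraries). The nearest to CD6 were CD300A (0.0591), BAZ2A (0.0705) and NINJ1 (0.0836), and the nearest to CD7 were CNN2 (0.0534), SPRY4 (0.0641) and NFATC1 (0.0797). CD6 and CD7 lay 0.152 apart, with 32 of these genes nearer to CD6 than CD7 was, whereas CD5 lay 1.01 from CD6 and 0.874 from CD7. With 2 groups of 3 libraries this measure mainly reflects the size of the difference between the groups.

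The members were also placed in the genome, which the selection had not used. CD6 and CD5 are neighbours on chromosome 11, with 82.0 kb between the end of CD6 and the start of CD5 and 0 tested genes in between. The nearest tested coding gene before CD6 was TMEM132A (chr11:60924463-60937159, 34.5 kb away), which encodes a transmembrane protein. TMEM132A measured 3.49, 2.98 and 3.20 CPM in scramble and 10.1, 8.85 and 9.38 CPM in hairpin libraries. Its groups were far apart, and it rose by 1.54 on the log2 scale (SE 0.103, edgeR, adjusted p = 1.08e-14). The nearest tested coding gene after CD5 was VPS37C, an ESCRT subunit on the other strand whose 3' end lies 2.40 kb away (chr11:61130256-61161617). VPS37C measured 9.29 ± 0.768 and 8.68 ± 0.415 CPM (SD of 3 libraries), with overlapping groups. Its log2 difference was -0.10 (SE 0.0848, edgeR, adjusted p = 0.455).

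Within 500 kb of CD6 or CD5, 24 other genes were tested. Of these 4 rose and 3 fell, and their median log2 fold change was -0.06. Besides TMEM132A, TMEM109 rose by 0.19, VWCE by 0.16 and TKFC by 0.29, and CCDC86, PTGDR2 and CPSF7 fell, by 0.15, 0.71 and 0.27 on the log2 scale. PTGDR2, the prostaglandin D2 receptor also known as CRTH2, went from 5.48 ± 0.339 to 3.39 ± 0.331 CPM (SD of 3 libraries; edgeR, adjusted p = 1.72e-05). These 7 of 24 are a share near that of all tested genes, of which 28.8% were called in either direction. These 6 genes besides TMEM132A were named after their values were seen.

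**Figure D4:**
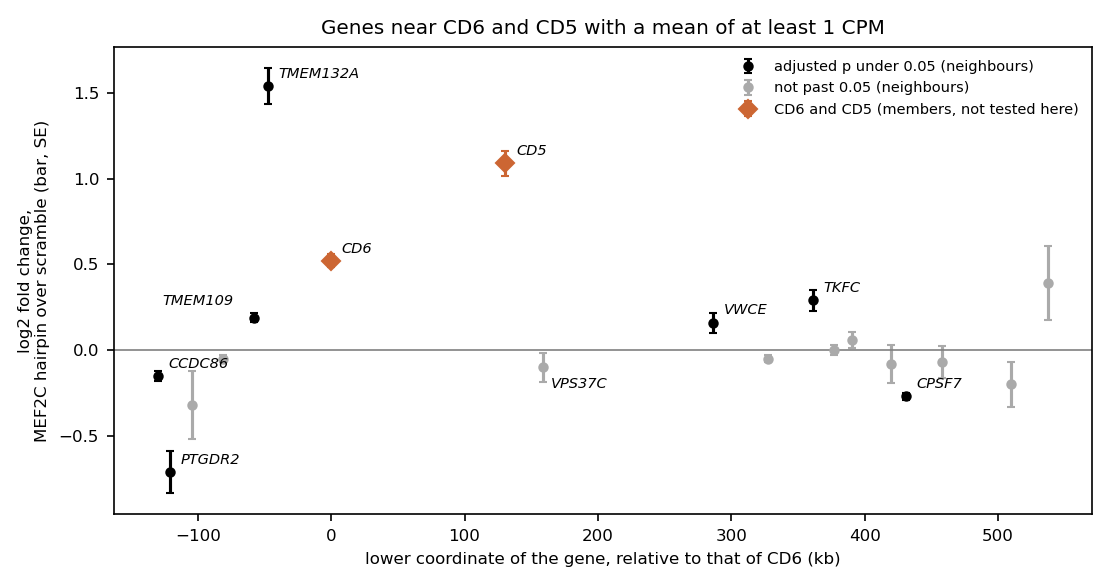
Log2 fold change with SE bars against the lower coordinate of the gene relative to that of CD6 (kb), for CD6, CD5 and the 17 of 24 tested neighbours with a mean of at least 1 CPM. TMEM132A (1.54), CD6 (0.52) and CD5 (1.09) lie high, VPS37C next to CD5 lies at -0.10, and black points mark the 7 neighbours past the threshold.

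Around all 10 members 154 other tested genes lay within 500 kb, of which 29 rose and 18 fell. Without MEF2C hairpin replicate 2 the counts were 24 and 11. Together the 29 and 18 are a share near the 28.8% called among all tested genes in either direction. By direction, more neighbours rose than fell, whereas 13.5% of all tested genes were called higher and 15.3% lower. That balance depended on the scaling. With upper-quartile scaling 2549 of all tested genes were higher and 2454 lower, against 30 and 13 of the neighbours. The neighbours were not matched for level. The CD27 window held 11 of the 29 and 2 of the 18. Among the 29, PTPN6 near CD27 and CD58 near CD2 are counted again in the lists of partner genes below. PTGFRN, the nearest tested coding gene after CD2 (chr1:116910057-116990358), encodes an immunoglobulin-family membrane protein. It measured 0.305, 0.538 and 0.333 CPM in scramble and 1.18, 1.62 and 1.31 CPM in hairpin libraries. The log2 difference was 1.85 (SE 0.278, edgeR, adjusted p = 1.76e-06). IGSF3, on the other side of CD2, measured 5.79 ± 0.965 and 5.56 ± 0.710 CPM (SD of 3 libraries; edgeR, adjusted p = 0.774). PTPRK, a receptor phosphatase beside THEMIS, fell from 208 ± 3.88 to 185 ± 3.87 CPM (SD of 3 libraries; log2 difference -0.17, edgeR, adjusted p = 4.95e-07). TMPRSS3, 6.60 kb from UBASH3A, rose by 0.66 (SE 0.185, edgeR, adjusted p = 0.00543) from 1.36 ± 0.214 to 2.15 ± 0.234 CPM (SD of 3 libraries).

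The nearest tested coding genes on both sides of CD7 were CSNK1D (log2 fold change -0.04, edgeR, adjusted p = 0.251) and TEX19 (0.39, edgeR, adjusted p = 0.0843). The CD7 ligand gene SECTM1 (chr17:82321024-82334074), which was not tested, lies between CD7 and TEX19. Neither CSNK1D nor TEX19 passed the test. ICOS after CD28 (0.40, edgeR, adjusted p = 0.0644) did not pass it either, but it did in 4 of 13 alternatives: with the stricter filter, with limma-voom, without scramble replicate 2 and without hairpin replicate 1. Nor did the test call C6orf58 before THEMIS (-0.02), SLC37A1 after UBASH3A (0.14), DZIP3 before TRAT1 (0.10, called without hairpin replicate 1), VAMP1 after CD27 (0.04) and TENM1 after SH2D1A (-0.59). Tested coding genes that overlap a member were not taken as lying on a side. Of these, TAPBPL at CD27 rose by 0.30 (edgeR, adjusted p = 0.00942) and STAG2 at SH2D1A by 0.06 (edgeR, adjusted p = 0.0321). They were not among the genes followed over the alternatives. SCNN1A before CD27 rose by 1.24 (edgeR, adjusted p = 0.0476), RAPH1 before CD28 fell by 0.79 (edgeR, adjusted p = 0.0402) and XIAP before SH2D1A rose by 0.09 (edgeR, adjusted p = 0.0371). These 3 calls were lost in 6 to 8 alternatives each, and 75.8% of the exonic bases of RAPH1 overlap other genes.

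RefSeq promoter windows (250 bases before to 50 after a start, GRCh38.p14) were found for 6 of the 10 members, in 8 windows, and there was no entry for CD5, CD6, CD7 and UBASH3A. They were searched on both strands for the MEF2 consensus motif and for 6 short motifs. These were CAGCTG for an E-box, TGTGGT for RUNX factors, AGGAAG for ETS factors, CTTTGA for TCF/LEF factors, AGATAA for GATA factors and TATAAA for a TATA box. The windows of CD28 and TRAT1 are shown, with matches in capitals, CD28 because it alone among the 8 held the MEF2 motif and TRAT1 because its groups did not overlap and its window held matches, while that of SH2D1A held none. Matches did not overlap those of another motif in either window.
CD28, chr2:203706389-203706688, plus strand: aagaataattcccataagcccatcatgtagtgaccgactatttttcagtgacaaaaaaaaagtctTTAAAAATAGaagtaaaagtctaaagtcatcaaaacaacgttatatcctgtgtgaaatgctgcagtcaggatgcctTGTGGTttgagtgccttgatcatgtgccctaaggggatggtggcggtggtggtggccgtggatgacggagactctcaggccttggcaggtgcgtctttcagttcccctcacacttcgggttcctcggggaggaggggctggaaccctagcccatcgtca
TRAT1, chr3:108822536-108822835, plus strand: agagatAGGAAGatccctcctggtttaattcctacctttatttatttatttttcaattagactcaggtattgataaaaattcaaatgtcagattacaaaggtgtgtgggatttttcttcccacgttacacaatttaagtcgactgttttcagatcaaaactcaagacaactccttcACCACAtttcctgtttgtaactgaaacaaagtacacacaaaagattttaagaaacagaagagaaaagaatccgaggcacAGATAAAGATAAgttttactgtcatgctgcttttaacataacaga
The CD28 window held a MEF2 match, present in 2.99% of 35116 windows in the table, and a RUNX match (13.1%). The TRAT1 window held RUNX, ETS (33.6%) and GATA (10.3%) matches. The windows of CD2 and SH2D1A held none of the 7 motifs, that of CD27 held RUNX and ETS, and the 3 THEMIS windows held TATA box, RUNX, GATA or ETS matches. A match gives letters in a window and is not evidence of binding.

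The genes that work with the members were read from 4 lists, given as counts of genes called by the same test. Ligands and counter-receptors were few in this line: 7 of 12 were tested, 2 rose and none fell, with a median log2 fold change of 0.03. CD59, a membrane protein that has been described as a CD2 ligand, rose from 101 ± 2.72 to 111 ± 2.55 CPM (SD of 3 libraries; log2 difference 0.14, edgeR, adjusted p = 0.000202). CD58, the main CD2 ligand, rose from 3.36 ± 0.248 to 4.23 ± 0.580 CPM (SD of 3 libraries; log2 difference 0.34, edgeR, adjusted p = 0.0479), a call lost in 7 of 13 alternatives, among them each scramble replicate left out, hairpin replicate 2 left out and DESeq2. ALCAM, the ligand of CD6, measured 88.9 ± 0.804 and 88.2 ± 2.64 CPM (SD of 3 libraries; edgeR, adjusted p = 0.806). The CD7 ligand SECTM1 and the CD28 ligands CD80 and CD86 were not tested, and no untested gene of the list reached more than 0.118 CPM in any library.

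Of 23 receptors related to the members 11 were tested, 2 rose and none fell, with a median of 0.21. Most of the 11 lay under 5 CPM. Among all tested genes the median was 0.121 at 0 to 1 CPM and 0.091 at 1 to 5 CPM. At these levels 4.9% and 14% of genes were called higher, and 1.1% and 3.52% lower. CD226, an activating immunoglobulin-family receptor, measured 496, 480 and 495 CPM in scramble and 535, 552 and 563 CPM in hairpin libraries (log2 difference 0.17, SE 0.0212, edgeR, adjusted p = 7.21e-08). TNFRSF14, a TNF-receptor family member known as HVEM, rose from 8.08 ± 0.436 to 10.2 ± 0.664 CPM (SD of 3 libraries; log2 difference 0.33, edgeR, adjusted p = 0.00211). The SLAM receptors that SH2D1A serves were scarce: SLAMF1 had 0 reads in all libraries, and LY9, SLAMF6, SLAMF7 and CD244 did not pass the filter, while CD84 measured 3.40 ± 0.336 and 2.77 ± 0.477 CPM (SD of 3 libraries; edgeR, adjusted p = 0.158). Of 7 transmembrane adaptors like TRAT1, 6 were tested and 1 rose, LAX1, from 29.2 ± 1.45 to 32.5 ± 0.763 CPM (SD of 3 libraries; log2 difference 0.15, edgeR, adjusted p = 0.0124). The LAX1 call was lost without scramble replicate 1 or hairpin replicate 3. LAT, the central adaptor of T-cell receptor signalling, measured 4.27 ± 0.0715 and 4.64 ± 0.480 CPM (SD of 3 libraries; edgeR, adjusted p = 0.504), and 49.7% of its exonic bases overlap other genes.

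Cytoplasmic partners of the members went both ways. Of 34 in the list 33 were tested, 6 rose and 11 fell, with a median of -0.03. PTPN6, the phosphatase that works with CD5 and THEMIS in inhibitory signalling, measured 67.6, 68.9 and 67.9 CPM in scramble and 91.0, 89.8 and 86.7 CPM in hairpin libraries, a rise of 0.39 on the log2 scale (SE 0.0311, edgeR, adjusted p = 1.10e-12). SDCBP (syntenin), which binds the CD6 tail, rose by 0.27 (SE 0.0317, edgeR, adjusted p = 1.32e-08). GRB2, the adaptor bound by THEMIS and CD28, measured 217, 224 and 223 CPM in scramble and 191, 192 and 193 CPM in hairpin libraries, and fell by 0.20 (SE 0.0229, edgeR, adjusted p = 5.37e-09). SIVA1, a CD27-binding protein, fell by 0.23 (SE 0.0275, edgeR, adjusted p = 2.74e-08). For each of these 4 genes the groups did not overlap. Over the 4 lists together 57 of 76 genes were tested, and 11 rose and 11 fell. Of all tested genes 13.5% were called higher and 15.3% lower. Among all tested genes, those at 100 CPM or more showed a median of -0.050 with 44.9% called lower, and those of 5 to 20 CPM a median of 0.041 with 22.4% called higher, and the lists were not matched for level.

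**Figure D5:**
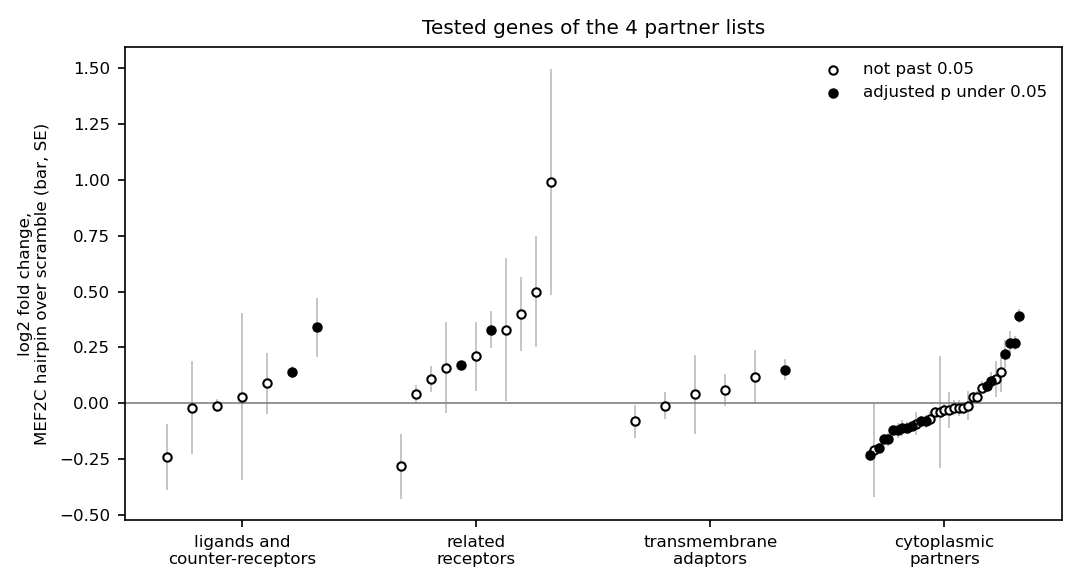
Log2 fold change with SE bars of the 57 tested genes of the 4 partner lists, sorted within each list, filled where the edgeR adjusted p is under 0.05. Cytoplasmic partners lie on both sides of 0, from SIVA1 at -0.23 to PTPN6 at 0.39, and the 5 filled points of the other 3 lists all lie above 0.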

How the data were processed

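RNA was measured in 6 libraries of 1 cell line, 3 scramble and 3 MEF2C hairpin, grouped by their titles. Each library's file holds the authors' deposited read counts, in whole numbers by gene, made with Trim Galore, STAR and HTSeq on hg38, per the submitters' processing notes. Versions, annotation release and strand setting are not given in the sources used here. Whether reads of antisense genes were kept apart in the counting is therefore not known. The 5 HTSeq summary lines, 19.2% to 31.4% of reads, stayed out of library sizes and tests.

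Symbols matched 77.9% of identifiers. Positions and lengths came from GENCODE 29 (GRCh38). Genes were kept by filterByExpr (minimum count 10), scaled by TMM and fitted with edgeR 4.0.16 under R 4.3.3 (robust quasi-likelihood, group only, Benjamini-Hochberg). SE was taken from F, as the size of the log2 fold change divided by its square root. CPM uses TMM-scaled library sizes, or gene totals for untested genes. The fit was tested on simulated data. Replicates differed by at least 3.34 chi-square units per gene, above the 1 of sampling noise, so none was merged.

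The members and lists were chosen with earlier results of these data known. Named genes are MEF2C, the members, up to 4 genes with the smallest adjusted p per partner list, the nearest tested coding gene on each side of a member within 500 kb, the 3 likest genes to CD5, CD6 and CD7, and the highest marker of each list. ALCAM, CD84, LAT, TAPBPL, STAG2, untested ligands and SLAM receptors, and further neighbours of CD6 and CD5 were named after their values were seen. Alternatives were other scaling (DESeq2 size factors, upper quartile), a stricter or absent filter, each library left out in turn, a fit with a replicate block, the tools DESeq2 1.42.0 and limma-voom (limma 3.58.1), a 1000 kb window and the longest transcript's length.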

Additional observations from a re-analysis of the deposited data

How the results depend on the processing

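Of the 9 tested members 7 had the same call in each of up to 13 alternatives, and CD2 and THEMIS lost theirs in 5 and 3. The number of members called higher ran from 5 to 6 with 1 library left out and was 5 with DESeq2, and the number called lower ran from 0 to 1. Called ligands numbered 1 instead of 2 with no filter, 1 with the replicate block and 1 with DESeq2, and with 1 library left out they ran from 1 to 2 higher and from 0 to 1 lower. With 1 library left out, related receptors ran from 0 to 1 lower, transmembrane adaptors from 0 to 1 higher, and genomic neighbours from 11 to 15 lower. The wider window of 1000 kb held 214 tested neighbours instead of 154, of which 41 were higher and 29 lower. With no filter 12, with the stricter filter 12 and with DESeq2 14 of the neighbours were lower, against 18. The replicate block changed no call of a member: all tested genes then gave 2308 higher and 2584 lower. With upper-quartile scaling all tested genes gave 2549 higher and 2454 lower. Over all tested genes, same-numbered libraries did not deviate together (correlations -0.0135, -0.0137 and -0.00314). Genes with few reads weigh as much as others in this measure, so it cannot exclude a shared batch. Replicate 3 had the largest share of reads aligned to several places in both groups (6.86% in scramble, 16.1% in hairpin). Among the 26 named partners and neighbours, 19 kept their call in each alternative, ICOS gained a call in 4 alternatives and DZIP3 in 1, and none of the 35 genes reversed. The cause of these changes was not tested. CD27 and CD28, with at most 46 reads in a library, are limited by depth.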
